A study of Mus musculus with 6 samples.

Results

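Immune checkpoint ligands are surface or secreted proteins by which tumour cells and antigen-presenting cells restrain or permit T cells, and CD47 is the surface protein that tells macrophages not to engulf a cell. The RNA of 10 such genes was followed in B16F10 tumours, namely Cd274, Pdcd1lg2, Cd80, Cd86, Pvr, Nectin2, Lgals9, Cd47, Cd276 and Vsir. They were chosen by gene symbol in an annotation of the mouse genome build GRCm38, and all 10 were found among the 44679 genes of the deposited files. B16F10 is a pigmented melanoma line of mouse. Of the 6 tumours, 3 came from mice with no treatment and 3 from vorinostat-treated mice, and the samples are labelled as skin tumours. Vorinostat blocks histone deacetylases, enzymes that take acetyl groups off histones and other proteins. The dose, the schedule, and the strain and age of the mice were not given in the sources used here. Total RNA was taken from pellets of tumour cells, so host cells that remained in a pellet contribute to every value. The labels do not say that each tumour came from its own mouse, and p-values measure the spread between these samples.

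Several of these ligands act in pairs on shared receptors. PD-L1 (Cd274) and PD-L2 (Pdcd1lg2) bind PD-1 on T cells, and interferon gamma is the best known inducer of PD-L1 in melanoma. CD80 and CD86 of antigen-presenting cells activate T cells through CD28 and are held back by CTLA-4, while PVR and nectin-2 bind the activating receptor DNAM-1 and the inhibitory receptor TIGIT. CD47 binds SIRP-alpha on myeloid cells.

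The reads assigned to genes numbered between 11.3 M and 28.9 M per library. After TMM scaling, which corrects for differences in the make-up of the libraries, the effective library sizes ran from 10.5 M in untreated tumour 3 to 26.2 M in untreated tumour 1. Levels are given as CPM, which are counts scaled to that effective size, and 3 reads, taken as the detection limit, correspond to between 0.114 and 0.285 CPM. Untreated tumour 3 and vorinostat tumour 3 had the smallest effective libraries. Untreated tumour 3 had the most assigned reads, 28.9 M, of which 10.3% came from nuclear protein-coding genes, against 29.1% to 46.4% in the other 5 libraries. The labelled tissue was checked on 8 genes of the melanocyte lineage, such as Mlana, Pmel and Tyr, whose summed level ran from 5895 to 7549 CPM in untreated and from 5860 to 8144 CPM in treated tumours. The 12 macrophage markers, among them Adgre1, Csf1r and Cd68, had reads in every library and summed to 114, 66.5 and 204 CPM in untreated tumours 1, 2 and 3. In vorinostat tumours 1, 2 and 3 they summed to 123, 136 and 108 CPM. The 8 dendritic cell markers summed to between 8.08 and 15.9 CPM in untreated and between 8.91 and 16.8 CPM in treated tumours, with Clec9a at 0 in 1 library. The 8 T cell markers summed to between 6.24 and 15.0 CPM in untreated and between 9.19 and 14.4 CPM in treated tumours. In whole tumours, fewer cells of a type and less RNA per cell cannot be told apart.

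Levels of different genes were compared per length, as CPM per kilobase of effective transcript length and as means ± SD over the 6 tumours. Cd47 stood at 8.99 ± 2.75, Pvr at 8.51 ± 1.35 and Lgals9 at 8.24 ± 1.24 CPM per kilobase, and this order was not stable, since Cd47 exceeded Pvr in 4 of 6 tumours and Pvr exceeded Lgals9 in 3 of 6. Nectin2 followed at 4.01 ± 0.986, below Lgals9 in 6 of 6 tumours, and Cd274 at 2.66 ± 0.525, below Nectin2 in 4 of 6. Cd276, which encodes the B7 family protein B7-H3, stood at 1.76 ± 0.225 and was below Cd274 in 6 of 6 tumours. Vsir, which encodes the inhibitory B7-like protein VISTA, stood at 1.59 ± 0.637 and Cd86 at 1.17 ± 0.716. Cd276 exceeded Vsir in 4 of 6 tumours and Vsir exceeded Cd86 in 6 of 6. The lowest were Cd80 at 0.477 ± 0.296 and Pdcd1lg2 at 0.212 ± 0.0777 CPM per kilobase, with Cd86 above Cd80 in 5 of 6 tumours and Cd80 above Pdcd1lg2 in 6 of 6. The median of the tested nuclear protein-coding genes was 3.22 CPM per kilobase. Cd47, Pvr and Lgals9 exceeded 77.5%, 76.3% and 75.6% of these genes, Cd274 44.8% and Pdcd1lg2 3.17%.

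**Figure D1:**
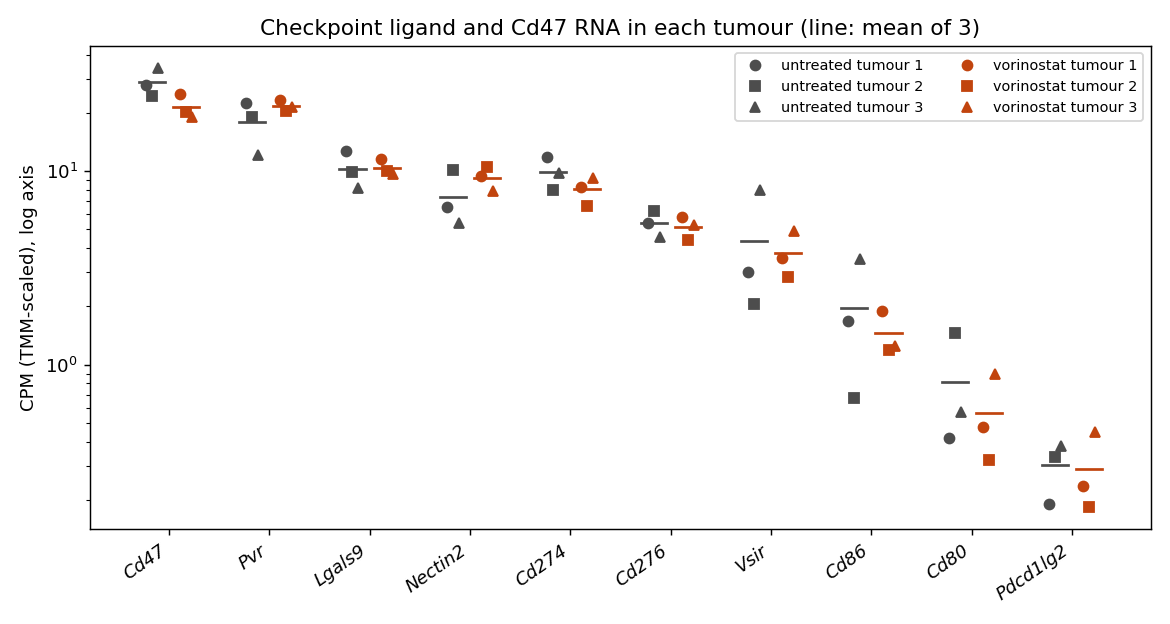
Level of each of the 10 genes in each tumour, as TMM-scaled CPM on a log axis, with genes ordered by their level per length; grey symbols are untreated and orange symbols vorinostat tumours, and each line is the mean of 3. For all 10 genes the ranges of the groups overlap, and the scatter is widest for Cd86, Cd80 and Vsir.

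The comparison of treated with untreated tumours asked which of these genes differed in RNA level. None of the 10 genes was called. A filter on low counts left 8 of them in the edgeR quasi-likelihood test, and none of these passed an adjusted p of 0.05, as none of the 14776 genes tested did (0%). Pdcd1lg2 and Cd80 were too low to be tested. At an unadjusted edgeR p under 0.05 there was 1 member, Cd47, against 6.27% of all genes tested (927 genes). DESeq2 called 0 members and 11 of 14775 genes (0.0745%), and limma-voom called 0 of either. Of the 8 members tested 3 were nominally higher and 5 lower in treated tumours, where 45.9% of all genes tested were lower. Their log2 fold changes had a median of -0.13, and the median of all genes tested was 0.03. The group ranges were apart for none of the 8, against 12.1% of all genes tested.

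Cd47 (ENSMUSG00000055447, chromosome 16 from 49800533 to 49915010, plus strand, GRCm38) had the smallest p of the members. Its levels were 27.7, 24.3 and 34.2 CPM in untreated tumours 1, 2 and 3 and 24.9, 20.2 and 19.1 CPM in vorinostat tumours 1, 2 and 3. The ranges met only narrowly, as vorinostat tumour 1 lay just above untreated tumour 2, and untreated tumour 3 was the highest. The means were 21.4 ± 3.11 CPM with vorinostat and 28.7 ± 4.996 CPM without (SD, n = 3 each), or -0.42 as log2 fold change (SE 0.17). Its 95% interval ran from -0.79 to -0.04, with an unadjusted edgeR p of 0.0315 and an adjusted p of 0.743. The difference thus did not pass the test over all genes. Its sign held in all 20 other settings tried, on TPM relative to the median gene, but these settings reuse the same libraries. The log2 fold change was -0.30 without untreated tumour 3 (unadjusted edgeR p 0.128). Without both tumours numbered 3 it was -0.19 (unadjusted edgeR p 0.272).

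Promoter sequences were taken from RefSeq (GRCm38.p6), as windows of 300 bases with 250 before and 50 after a start site, and 8 of the 10 genes had one. Cd86 and Pvr had no entry. Windows were searched on both strands for the interferon response element core (a pair of GAAA blocks 2 bases apart), the GC box GGGCGG, the AP-1 site TGANTCA and the E-box CACGTG. Among all 32851 windows of that length these were found in 3.44%, 35.7%, 7.81% and 7.15%. A match describes the letters only. The windows of Cd47 and Pdcd1lg2, the members with the highest and the lowest level per length, are shown with that of Cd274, the close relative and neighbour of Pdcd1lg2, and that of Lgals9. All run 5′ to 3′ along the gene, and capitals mark matches to any of these motifs. The strand is plus for Cd47, Cd274 and Pdcd1lg2 and minus for Lgals9. The Cd47 window lies well inside the GENCODE M21 interval of the gene, which begins at 49800533, and so not at its 5′ end. The windows of Cd80, Nectin2 and Cd276 also lie inside their gene intervals.
Cd47 chr16:49855404-49855703: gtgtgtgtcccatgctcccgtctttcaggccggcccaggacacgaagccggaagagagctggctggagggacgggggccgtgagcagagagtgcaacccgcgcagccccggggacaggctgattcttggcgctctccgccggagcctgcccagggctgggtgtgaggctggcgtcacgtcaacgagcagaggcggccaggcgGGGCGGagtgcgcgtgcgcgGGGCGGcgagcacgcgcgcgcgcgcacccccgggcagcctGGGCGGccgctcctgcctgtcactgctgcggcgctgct
Cd274 chr19:29367188-29367487: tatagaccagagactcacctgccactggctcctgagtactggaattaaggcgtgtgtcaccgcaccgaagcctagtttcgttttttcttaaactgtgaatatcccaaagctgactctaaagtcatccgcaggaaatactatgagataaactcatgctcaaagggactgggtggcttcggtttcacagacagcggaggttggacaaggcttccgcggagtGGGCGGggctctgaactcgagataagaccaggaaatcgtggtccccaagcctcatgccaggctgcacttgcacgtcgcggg
Pdcd1lg2 chr19:29410669-29410968: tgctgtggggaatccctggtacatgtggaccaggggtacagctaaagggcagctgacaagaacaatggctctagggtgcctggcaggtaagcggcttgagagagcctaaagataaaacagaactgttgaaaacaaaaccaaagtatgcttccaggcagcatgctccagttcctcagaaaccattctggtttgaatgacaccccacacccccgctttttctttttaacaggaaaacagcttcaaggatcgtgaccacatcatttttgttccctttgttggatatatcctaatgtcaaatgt
Lgals9 chr11:78984875-78985174: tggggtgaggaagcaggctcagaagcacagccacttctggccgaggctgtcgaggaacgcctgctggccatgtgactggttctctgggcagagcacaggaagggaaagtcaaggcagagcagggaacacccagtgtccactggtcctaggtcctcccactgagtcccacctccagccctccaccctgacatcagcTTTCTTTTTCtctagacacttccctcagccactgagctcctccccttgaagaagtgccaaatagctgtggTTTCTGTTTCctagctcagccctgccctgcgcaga

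The Cd47 window held 3 GC boxes, the Cd274 window 1 and the Pdcd1lg2 window none of the 4 motifs. The Lgals9 window held 2 matches to the interferon response element core and no GC box. GC boxes were also found in the windows of Nectin2 (3 matches), Cd276 (4) and Vsir (3). The Cd80 window held 1 AP-1 site and none of the other motifs. RefSeq gives a second Cd47 window that begins a few bases further on, with the same 3 GC boxes.

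Of the PD-1 ligands, Cd274 (ENSMUSG00000016496, chromosome 19 from 29367455 to 29388095, plus strand) was measured in every tumour and Pdcd1lg2 (ENSMUSG00000016498, chromosome 19 from 29410919 to 29471161, plus strand) stood barely above the detection limit. Cd274 stood at 11.9, 8.03 and 9.80 CPM in untreated tumours 1, 2 and 3 and at 8.27, 6.62 and 9.24 CPM in vorinostat tumours 1, 2 and 3. Untreated tumour 1 was the highest and vorinostat tumour 2 the lowest, with the other 4 between them in mixed order. The means were 8.04 ± 1.33 against 9.90 ± 1.92 CPM, and the log2 fold change was -0.31 (SE 0.20, 95% interval -0.76 to 0.13; adjusted p 0.766 in edgeR). Pdcd1lg2 had 5, 6 and 4 reads in untreated and 6, 4 and 5 reads in vorinostat tumours 1, 2 and 3. These are 15 reads in each group, and the exact Poisson 95% interval of a count of 5 runs from 1.62 to 11.7 reads, for counting error only. A small or moderate difference in Pdcd1lg2 could not be detected at this depth.

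Within each tumour, Cd274 stood above Pdcd1lg2 in 6 of 6 tumours on the TPM scale, which corrects for length. The ratio was 25.8, 9.85 and 10.7 in untreated and 14.4, 14.8 and 8.51 in vorinostat tumours 1, 2 and 3. The geometric mean was 13.1. The log2 ratio averaged 3.61 ± 0.451 in treated and 3.80 ± 0.768 in untreated tumours (SD, n = 3 each), which differ by -0.20, less than either SD (two-sided exact permutation p = 0.8). The smallest p that 3 against 3 tumours allow is 0.1, so no such comparison could pass 0.05. With Benjamini-Hochberg adjustment over the 3 gene pairs compared in this way, each adjusted exact permutation p was 1.

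The CD28 and CTLA-4 ligands were both low. Cd86 (ENSMUSG00000022901, chromosome 16 from 36603869 to 36666081, minus strand) stood at 1.68, 0.669 and 3.52 CPM in untreated tumours and at 1.90, 1.19 and 1.26 CPM in vorinostat tumours 1, 2 and 3, from 12 to 48 reads a library. The untreated tumours held both the highest and the lowest value, and the treated ones lay between them. The log2 fold change was -0.39 (SE 0.63, 95% interval -1.77 to 0.98; adjusted p 0.907 in edgeR) and rested on untreated tumour 3, without which it was 0.27. Cd80 (ENSMUSG00000075122, chromosome 16 from 38455561 to 38496335, plus strand) stood at 0.420, 1.45 and 0.571 CPM in untreated and at 0.475, 0.322 and 0.897 CPM in vorinostat tumours 1, 2 and 3. Its 26 reads in untreated tumour 2 stood apart from 6 to 12 reads in the other 5 libraries. With no filter on low counts, the log2 fold change in edgeR was, for Cd80, -0.66 (SE 0.91, adjusted p 0.824) and, for Pdcd1lg2, -0.16 (SE 1.29, adjusted p 0.985). The TPM ratio of Cd86 to Cd80 was 2.91, 0.408 and 5.04 in untreated and 2.76, 9.69 and 1.18 in vorinostat tumours 1, 2 and 3. Untreated tumour 2 was the tumour in which Cd80 exceeded Cd86. The log2 ratio was 0.80 higher on average in treated tumours, against a pooled SD of 1.73 (exact permutation p = 0.7, two-sided, n = 3 each). As a ratio of reads, with no length scaling, it was 0.29 higher (exact permutation p = 1), and the ratio in vorinostat tumour 2 was 3.71 in place of 9.69, with the Cd86 length there at 809 bases.

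Pvr and Nectin2, the ligands of DNAM-1 and TIGIT, had the highest log2 fold changes of the members. Pvr (ENSMUSG00000040511, chromosome 7 from 19903578 to 19921160, minus strand) stood at 22.4, 19.0 and 12.2 CPM in untreated and at 23.3, 20.5 and 21.5 CPM in vorinostat tumours 1, 2 and 3. Untreated tumour 3 was the low one and the other 5 lay close together. The log2 fold change was 0.27 (SE 0.20, 95% interval -0.16 to 0.71; adjusted p 0.780 in edgeR), and 0.05 without untreated tumour 3. Nectin2 (ENSMUSG00000062300, chromosome 7 from 19716644 to 19750483, minus strand) stood at 6.56, 10.1 and 5.42 CPM in untreated and at 9.42, 10.5 and 7.89 CPM in vorinostat tumours 1, 2 and 3. Untreated tumour 2 lay among the treated tumours, and untreated tumours 1 and 3 below them. The log2 fold change was 0.33 (SE 0.24, 95% interval -0.19 to 0.85; adjusted p 0.779 in edgeR), and 0.60 without untreated tumour 2. Pvr exceeded Nectin2 in 6 of 6 tumours, at a TPM ratio of Nectin2 to Pvr of 0.351, 0.678 and 0.420 in untreated and of 0.481, 0.546 and 0.381 in vorinostat tumours 1, 2 and 3. The mean log2 ratio was -1.11 ± 0.264 in treated and -1.11 ± 0.491 in untreated tumours (exact permutation p = 1, two-sided, n = 3 each).

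Lgals9, Cd276 and Vsir had the log2 fold changes nearest to 0. Lgals9 (ENSMUSG00000001123, chromosome 11 from 78962974 to 78984946, minus strand) encodes galectin-9, a sugar-binding protein that can bind TIM-3 on T cells. It stood at 12.7, 9.92 and 8.18 CPM in untreated and at 11.5, 10.02 and 9.69 CPM in vorinostat tumours 1, 2 and 3, so that the treated values lay inside the untreated range. The log2 fold change was 0.011 (SE 0.19, 95% interval -0.40 to 0.43; adjusted p 0.993 in edgeR). Cd276 (ENSMUSG00000035914, chromosome 9 from 58524298 to 58555437, minus strand) stood at 5.42, 6.24 and 4.57 CPM in untreated and at 5.78, 4.41 and 5.29 CPM in vorinostat tumours 1, 2 and 3. It was the least variable member, with the highest tumour 1.42-fold above the lowest, where the median gene tested had 1.79-fold. Its log2 fold change was -0.075 (SE 0.23, 95% interval -0.58 to 0.43; adjusted p 0.960 in edgeR).

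Vsir (ENSMUSG00000020101, chromosome 10 from 60346851 to 60372684, plus strand) stood at 3.01, 2.06 and 7.99 CPM in untreated and at 3.56, 2.85 and 4.93 CPM in vorinostat tumours 1, 2 and 3. Tumour 3 of each group held its highest value, and untreated tumour 3 was 3.87-fold above untreated tumour 2. The log2 fold change was -0.18 (SE 0.45, 95% interval -1.17 to 0.82; adjusted p 0.950 in edgeR), and 0.51 without untreated tumour 3. Vsir lies inside Cdh23 on the opposite strand. Genes also overlap Pvr (Gm16184 and Gm16251), Nectin2 (Gm20512), Cd276 (Gm10657) and Pdcd1lg2 (A930007I19Rik), all on the opposite strand. AC119228.1 overlaps Cd274 on the opposite strand and is not among the genes of the deposited files. The libraries were stranded per the labels, but whether counting used strand was not given in the sources used here. Reads from these overlaps may be shared, and reads of AC119228.1 may be counted to Cd274.

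**Figure D2:**
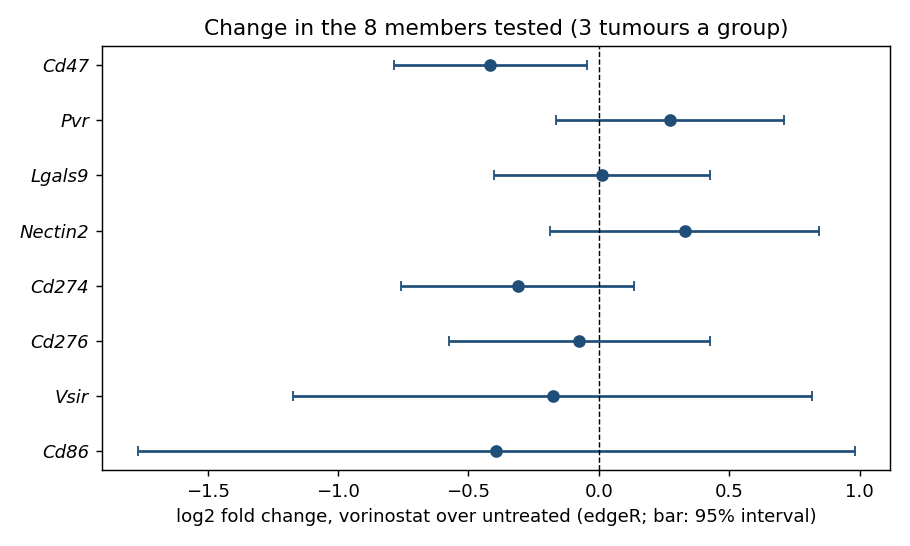
Log2 fold change of vorinostat over untreated tumours for the 8 genes tested, from the edgeR fit, with bars for the 95% interval and a dashed line at no change. The interval of Cd47 ends at -0.04 and those of the other 7 genes include 0; none passed the adjusted threshold, and Cd86 and Vsir have the widest intervals.

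The files also give for each gene a length weighted by the estimated abundance of its transcripts, which changes where reads shift between transcripts of different length. For Cd274, Cd80 and Pdcd1lg2 it was the same in all 6 tumours, at 3622, 1701 and 1645 bases. GENCODE M21 holds no Cd274 transcript other than that of 3622 bases, so a constant length there says nothing of transcript use. The annotation behind the lengths was not given. The Pdcd1lg2 length matches neither of its GENCODE M21 transcripts, of 1649 and 1729 bases, so comparisons with GENCODE M21 are approximate. Cd47, a gene with 10 annotated transcripts in GENCODE M21, had lengths of 2618, 3409 and 3079 bases in untreated and 2627, 3713 and 3347 bases in vorinostat tumours 1, 2 and 3. Tumour 1 of each group had the shortest and tumour 2 the longest Cd47 length, so that the order did not follow treatment. Vsir had lengths of 3008, 2394 and 4014 bases in untreated and 2182, 1408 and 4846 bases in vorinostat tumours 1, 2 and 3. In GENCODE M21 its coding transcripts have 4846, 4843, 1290 and 497 bases. Cd86 ran from 1887 to 2350 bases in 5 tumours and stood at 809 bases in vorinostat tumour 2, where its 26 reads were the base of that estimate. The lengths enter every value per kilobase and every TPM ratio. With effective length as an offset in edgeR, the log2 fold changes were 0.35 for Vsir and 0.22 for Cd86 in place of -0.18 and -0.39. That of Cd47 stayed lower in treated tumours, and no member was called.

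**Figure D3:**
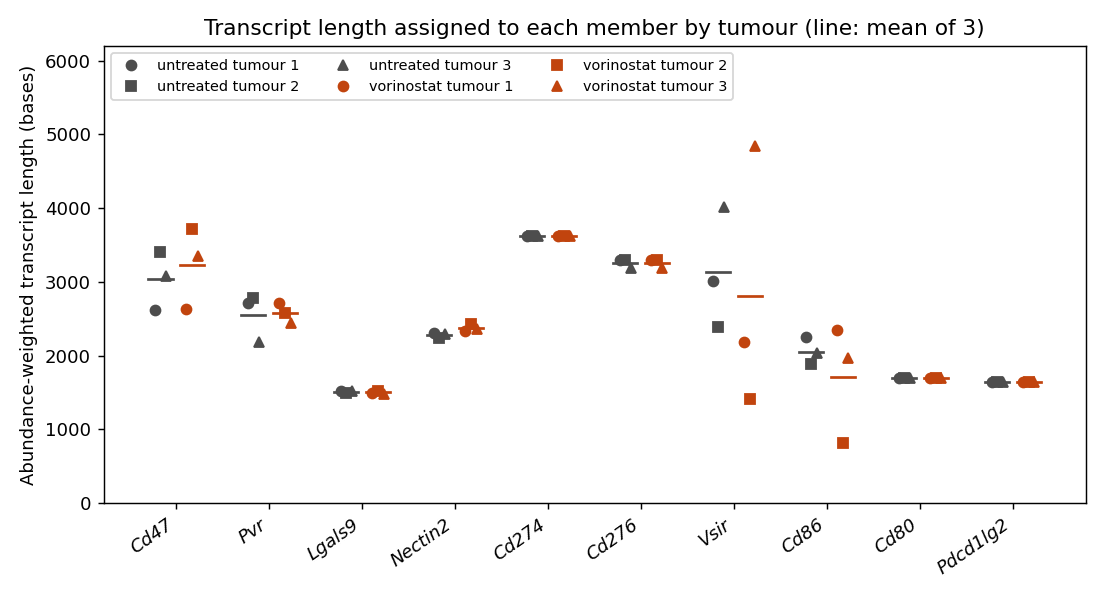
Abundance-weighted transcript length in bases for each gene and tumour, with grey symbols for untreated and orange symbols for vorinostat tumours and lines for the mean of 3. Vsir runs from 1408 to 4846 bases and Cd86 has 1 low value at 809 bases, while Cd274, Cd80 and Pdcd1lg2 do not vary. For Cd274, which has no other transcript in GENCODE M21, no shift between transcripts could show.

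The receptors and binding partners of these ligands were examined as a list of 13 genes, of which 12 were found and 9 tested. None was called by edgeR, 1 was nominally higher and 8 lower in treated tumours, and the log2 fold changes had a median of -0.14. Of all genes tested 0% were called and 45.9% were lower, with a median of 0.03. On the T cell side, Ctla4 stood at 1.60 ± 0.593 against 1.73 ± 1.02 CPM and Cd28 at 1.20 ± 0.468 against 1.15 ± 0.612 CPM, treated against untreated (SD, n = 3 each). Havcr2, which encodes TIM-3, stood at 1.38 ± 0.201 against 1.98 ± 1.81 CPM, and its untreated range of 0.502 to 3.996 CPM held all treated values. Which cells the Havcr2 reads came from was not tested. Tigit, Cd226 and Cd96 lay below 1 CPM in mean and were not tested.

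The partners of CD47 had more reads. Sirpa, which encodes the CD47 receptor SIRP-alpha, stood at 75.0, 75.6 and 75.7 CPM in untreated and at 70.9, 71.1 and 63.3 CPM in vorinostat tumours 1, 2 and 3. In the same untreated tumours the 12 macrophage markers summed to 114, 66.5 and 204 CPM, which Sirpa did not follow. In vorinostat tumours they summed to 123, 136 and 108 CPM, and the lowest value of both fell in tumour 3. Which cells the Sirpa reads came from was not tested. The group ranges of Sirpa were apart, though the log2 fold change was -0.14 (SE 0.15; adjusted p 0.857 in edgeR). It had the other sign on log2(TPM + 1), at 0.11 above the median gene, but not on log2(TPM + 0.1), at -0.11 relative to that gene. Thbs1, the matrix protein thrombospondin 1 that binds CD47, stood at 32.6, 16.4 and 75.8 CPM in untreated and at 25.5, 16.8 and 24.5 CPM in vorinostat tumours 1, 2 and 3. Untreated tumour 3 set the difference in means, and the log2 fold change was -0.89 (SE 0.42; adjusted p 0.743 in edgeR). Thbs1 passed the edgeR threshold with no filter on low counts (log2 fold change -0.97, adjusted p 0.00608) and without untreated tumour 2 (-1.30, adjusted p 0.0382). In these settings 156 of 33106 and 121 of 16438 genes passed, where none did in the main test. The log2 fold change of Thbs1 thus depended on the setting. It was -0.18 without untreated tumour 3 (adjusted p 0.961 in edgeR) and -0.20 without both tumours numbered 3 (adjusted p 0.9997 in edgeR).

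Igsf11, an adhesion protein reported to bind VISTA, had the smallest p of the list. It stood at 7.67, 6.36 and 10.7 CPM in untreated and at 5.90, 5.19 and 4.84 CPM in vorinostat tumours 1, 2 and 3, so that no treated tumour reached the lowest untreated one. The log2 fold change was -0.61 (SE 0.23; adjusted p 0.743 in edgeR). Group ranges were apart in this direction for 5.53% of all genes tested. Selplg, another binding partner of VISTA, stood at 5.79 ± 2.14 against 6.09 ± 3.47 CPM, and Rgmb, which binds PD-L2, at 11.5 ± 0.883 against 12.05 ± 2.81 CPM.

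**Figure D4:**
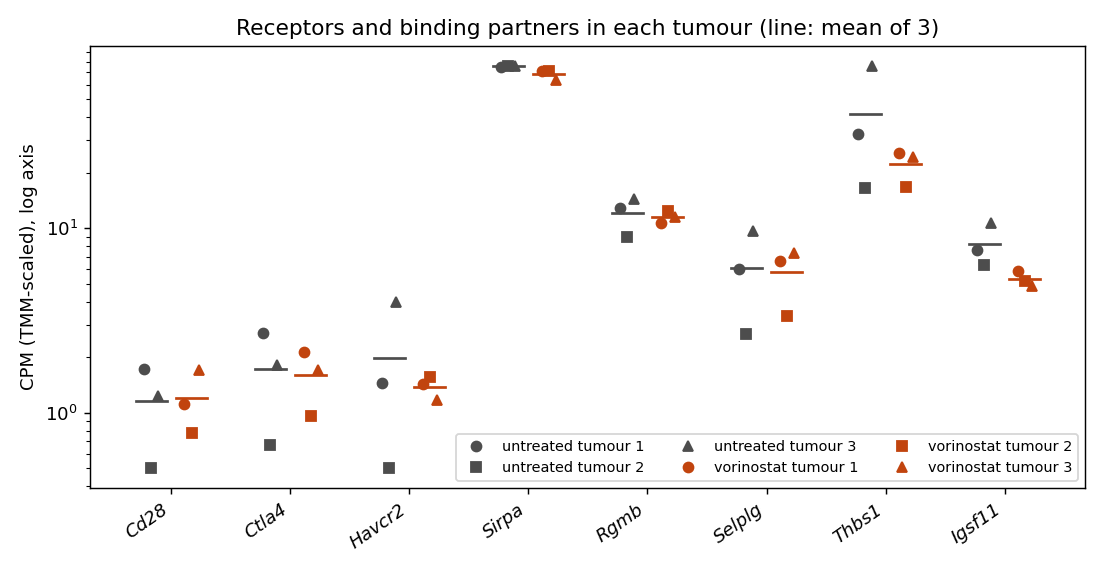
Level of the 8 receptors and binding partners that averaged 1 CPM or more in either group, as TMM-scaled CPM on a log axis, with grey symbols for untreated and orange symbols for vorinostat tumours and lines for the mean of 3. Sirpa is the highest and varies least, and untreated tumour 3 stands high for Thbs1 and Havcr2. On this scale Igsf11 and Sirpa are lower in every treated tumour than in any untreated one. The group difference of Sirpa had the other sign on log2(TPM + 1), relative to the median gene.

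Genes that act on PD-L1 or CD47 in cells were examined next. Of 8 genes on the route from interferon gamma to PD-L1, 7 were tested and none was called by edgeR, 3 being nominally higher and 4 lower with -0.092 as the median log2 fold change. For this list and those below, the shares over all genes tested were 45.9% lower and 0% called. The kinase gene Jak2 stood at 12.3 ± 1.30 against 16.4 ± 5.06 CPM and the transcription factor gene Irf1 at 13.9 ± 0.0975 against 11.9 ± 0.976 CPM. Irf1 was higher in all 3 treated than in all 3 untreated tumours, a separation seen in 6.53% of all genes tested, and its log2 fold change was 0.22 (SE 0.15; adjusted p 0.767 in edgeR), or -0.028 with the length offset. Of 3 genes whose proteins act on PD-L1 or CD47 after translation, all tested and none called by edgeR, Cmtm6 and Cmtm4 protect PD-L1 from degradation and Qpctl modifies CD47. Cmtm6 stood at 8.11 ± 0.273 against 7.12 ± 1.60 CPM and Cmtm4 at 30.2 ± 3.94 against 44.3 ± 13.3 CPM (log2 fold change -0.54, SE 0.21; adjusted p 0.743 in edgeR). Of 18 further ligands and inhibitory genes 12 were tested and none was called by edgeR, with 5 nominally higher, 7 lower and a median of -0.15. Tnfsf9, which encodes the ligand of the T cell receptor CD137, stood at 5.02 ± 0.530 against 3.58 ± 0.438 CPM with group ranges apart (log2 fold change 0.48, SE 0.24; adjusted p 0.743 in edgeR). Ceacam1, an adhesion protein that can inhibit T cells, stood at 2.57 ± 0.351 against 3.77 ± 1.04 CPM.

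Across the 6 tumours, member levels were set against the summed level of the 12 macrophage markers and of the 8 melanocyte lineage markers, as log2 values, in 20 relations. None passed Benjamini-Hochberg adjustment, and the smallest adjusted exact permutation p was 0.407. Cd86 had the highest correlation with the macrophage markers (Pearson r = 0.906, exact permutation p = 0.0417, adjusted p 0.407; Spearman rho = 0.657, exact permutation p = 0.175, adjusted p 0.690; n = 6). Without untreated tumours 2 and 3, which were farthest from the median of the marker sum, r was -0.14, so the relation rested on those tumours. The next highest value with these markers was that of Vsir (r = 0.805, exact permutation p = 0.0611, adjusted p 0.407; rho = 0.486, p = 0.356, adjusted p 0.711), and r was -0.73 without the same tumours. The relation was negative for Cd276 (r = -0.82, exact permutation p = 0.0444, adjusted p 0.407; rho = -0.71, p = 0.136, adjusted p 0.690), and r was -0.64 in the other 4 tumours. On TPM in place of CPM it had the other sign, with r = 0.560 for Cd276 (exact permutation p = 0.183, adjusted p 0.262). These TPM values were not taken relative to the median gene, so all values of a library share its scale. Untreated tumour 3 had the lowest TPM of Cd276, 0.353 against 0.906 to 1.63 in the other tumours. Whether that scale set the sign was not tested. For Cd274 the Pearson r with the macrophage markers was 0.149 (exact permutation p = 0.839; rho = 0.0857, p = 0.919) and -0.78 without untreated tumours 2 and 3. For Cd47 it was 0.459 (exact permutation p = 0.328; rho = 0.486, p = 0.356) and -0.085 without them. With the melanocyte lineage markers, r ran from -0.80 for Pdcd1lg2 to 0.708 for Nectin2, with exact permutation p of 0.0889 and 0.164 (rho -0.71 and 0.657, p = 0.136 and 0.175). Without untreated tumour 3 and vorinostat tumour 3 these became 0.0726 and 0.646. The values share library scaling, and 3 tumours a group are too few for a relation within a group.

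**Figure D5:**
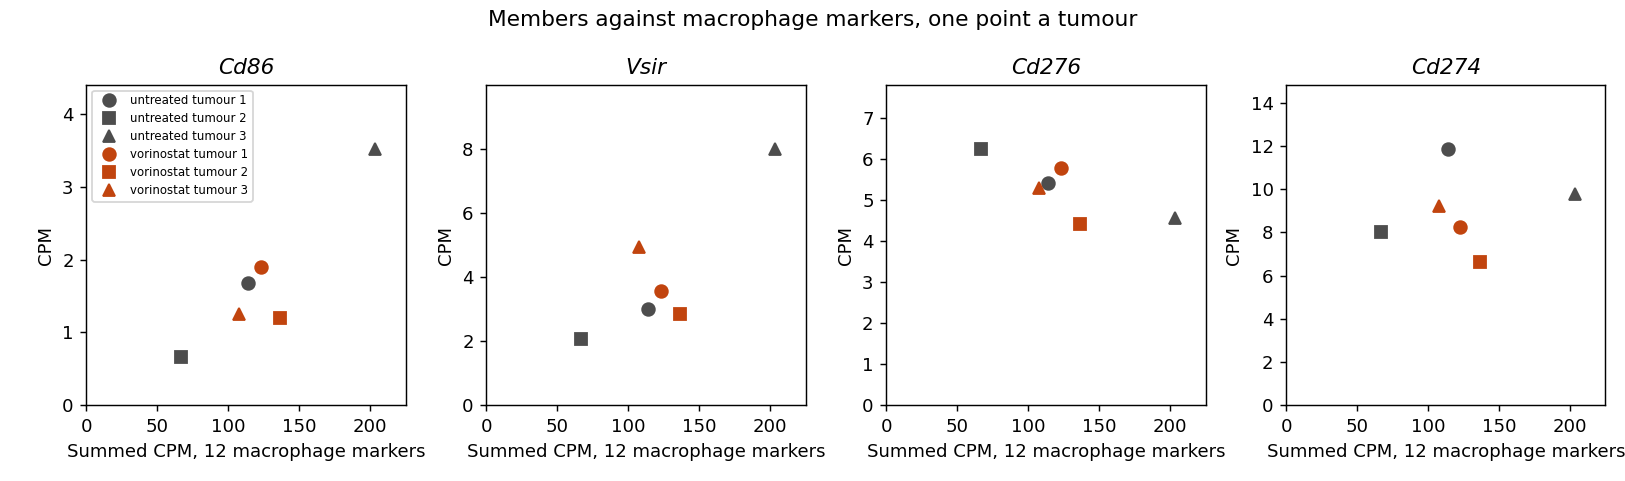
CPM of Cd86, Vsir, Cd276 and Cd274 against the summed CPM of 12 macrophage markers, with 1 point a tumour, grey for untreated and orange for vorinostat. Untreated tumour 3 at 204 CPM of markers and untreated tumour 2 at 66.5 CPM lie at the ends, and Cd86 in the 4 tumours between them runs from 1.19 to 1.90 CPM.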

How the data were processed

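RNA was sequenced from 6 tumours, 3 untreated and 3 from vorinostat-treated mice, grouped by the treatment given in the labels and numbered in the order of the samples. Per the submitters' processing notes, FastQC, Trim Galore and Salmon were used with genome build GRCm38; versions, annotation and options were not given in the sources used here. Of the deposited values, the estimated counts deposited by the authors were rounded to whole numbers. The TPM values deposited by the authors, scaled for length and library, were used for gene pair ratios and in alternatives. Lengths are as given per the file headers. Symbols and positions came from GENCODE M21 (GRCm38), which held 44118 of 44679 gene identifiers.

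The main test was edgeR 4.0.16 (R 4.3.3, quasi-likelihood, TMM, filterByExpr, treatment as the only term, two-sided, Benjamini-Hochberg adjustment over 14776 genes, threshold 0.05), checked on simulated data. SE and 95% intervals were derived from the F statistic of each gene. Correlations used log2(CPM + 0.5). The Poisson intervals of counts and the detection limits cover counting error only. The members, gene lists and tests were chosen with earlier results of these data known. All members were named, as were receptors with a mean of 1 CPM or more and the 2 genes with the smallest p of each other list. The receptor genes Pdcd1, Tigit, Cd226 and Cd96, which lay below that mean, were named as well. Alternatives used DESeq2 1.42.0, limma 3.58.1, other scalings, filters and input scales, an effective length offset, tumours of the same G number in the titles as correlated samples, and each library left out. Marker lists for B cells, NK cells, neutrophils, endothelial cells, fibroblasts and keratinocytes gave median log2 fold changes of -0.16, -0.44, -1.27, 0.24, -0.86 and 1.11 over 2, 1, 3, 3, 6 and 1 genes tested, and the dendritic, T cell, macrophage and melanocyte lists 0.54, -0.12, -0.18 and 0.036 over 5, 7, 12 and 8, none with a gene called by edgeR.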

Additional observations from a re-analysis of the deposited data

How the results depend on the processing

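No member was called under any of the 20 other settings tried. Cd274 and Cd47 stayed lower and Pvr and Nectin2 higher in treated tumours in all 20, counting TPM scales relative to the median of all genes, with log2 fold changes from -0.47 to -0.041, from -0.55 to -0.13, from 0.047 to 0.50 and from 0.15 to 0.60. The count of all genes called moved from 0 to 156 with no filter, 11 with DESeq2, 39 on log2(TPM + 1) and 52 on log2(TPM + 0.1), and ran from 0 to 121 with 1 library left out (121 without untreated tumour 2, 1 without untreated tumour 3). No paired analysis was possible because the N numbers in the titles, whose meaning is not stated, share only 1 value between the groups. In each group tumours 1 and 2 share a G number and tumour 3 has another. No G number occurs in both groups, so a difference between G numbers cannot be told apart from treatment. With tumours that share a G number entered as correlated (correlation 0.125) limma-voom called 0 genes. On TPM the median of all genes was higher in treated tumours, by 0.26 on log2(TPM + 1), 0.51 on log2(TPM + 0.1) and 0.14 on log2(TPM + 1) with no filter, and changes on these scales are relative to it. The p-values and counts of genes called on TPM test the changes before that median was subtracted. They are thus no test of the relative changes, for members or for all genes.

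Of the log2 fold changes that changed sign none passed the threshold, which on TPM was applied before the median was subtracted. The cause was not tested. For Cd86 they were 0.062 with limma-voom, 0.019 with G numbers, 0.22 with the length offset, 0.14, 0.27 and 0.27 on the 3 TPM scales, and 0.40 without untreated tumour 3 and vorinostat tumour 3. For Vsir, in the same order, they were 0.14, 0.11, 0.35, 0.20, 0.31, 0.33 and 0.35. For Lgals9 they were -0.055 with no filter, -0.0044 with limma-voom, -0.0067 without mitochondrial genes and -0.055 without both tumours numbered 3, and for Cd276 0.025 on log2(TPM + 1) with no filter. With 1 library left out, Cd86 ran from -0.82 to 0.27, Vsir from -0.54 to 0.51, Lgals9 from -0.14 to 0.17 and Cd276 from -0.20 to 0.014. For Cd28 they were -0.079 with no filter, -0.069 with limma-voom, -0.077 with G numbers, -0.21 with the length offset, -0.21, -0.23 and -0.085 on the TPM scales, -0.0035 without mitochondrial genes and -0.23 without both tumours numbered 3. For Havcr2 they were 0.20 with limma-voom, 0.14 with G numbers and 0.61 without both tumours numbered 3, and for Selplg 0.012 with upper-quartile scaling, 0.069 and 0.052 with limma-voom and G numbers and 0.21 without both tumours numbered 3. For Rgmb they were 0.0079 with upper-quartile scaling, 0.087 and 0.21 on log2(TPM + 1) with and without the filter and 0.096 without both tumours numbered 3, for Sirpa 0.11 and 0.23 on log2(TPM + 1) with and without the filter, for Irf1 -0.028 with the length offset and -0.012 on log2(TPM + 0.1), and for Ctla4 0.0098 on log2(TPM + 1) with no filter. With 1 library left out, Ctla4 ran from -0.53 to 0.35, Cd28 ran from -0.36 to 0.41, Havcr2 ran from -0.95 to 0.47, Rgmb ran from -0.26 to 0.049 and Selplg from -0.45 to 0.35.

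The differences in log2 ratio between the groups ran, with 1 library left out, from -0.28 to 1.54 for Cd86 over Cd80, from -0.45 to 0.25 for Cd274 over Pdcd1lg2 and from -0.20 to 0.27 for Nectin2 over Pvr. Among correlations that changed sign, on TPM in place of CPM r with the macrophage markers was 0.0406 for Pdcd1lg2, 0.747 for Pvr, 0.700 for Nectin2, 0.715 for Lgals9 and 0.560 for Cd276. With the melanocyte lineage markers it was 0.912 for Cd274, 0.542 for Pdcd1lg2, 0.505 for Cd80, 0.481 for Cd86, 0.829 for Cd47 and 0.732 for Vsir. On TPM, r with these markers was positive for every member, from 0.481 for Cd86 to 0.981 for Lgals9. The TPM values in the correlations were not taken relative to the median of all genes, and whether the shared library scale set these signs was not tested. Without the 2 tumours farthest from the median, r with the macrophage markers was -0.78 for Cd274, -0.14 for Cd86, 0.802 for Nectin2, -0.085 for Cd47 and -0.73 for Vsir, and with the melanocyte lineage markers 0.0726 for Pdcd1lg2, 0.270 for Cd86, -0.26 for Lgals9, -0.020 for Cd276 and 0.465 for Vsir. Depth limits Cd80 and Pdcd1lg2, with at most 26 and 6 reads a library.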
